A study of Mus musculus with 4 samples.

Results

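Pgc, Pga5, Cym and Cblif encode secreted proteins of gastric chief cells, and were followed here across the cell types that lineage-marked acinar cells of the mouse pancreas gave after caerulein injury. The 4 genes were taken by name out of 32288 features of the count table, because earlier results from these data had shown them in injured pancreas. They were thus chosen by their levels across cell types and times, and those levels are given as a description. Chief cells lie at the base of gastric glands. They release pepsinogens, inactive aspartic proteases that gastric acid turns into pepsin, and in the mouse they also make intrinsic factor, which carries vitamin B12 (cobalamin) to its receptor in the gut. Pgc encodes pepsinogen C and Pga5 a pepsinogen of the A group. Cym encodes prochymosin, the precursor of the milk-clotting protease of young mammals, and Cblif encodes intrinsic factor. Chief cells share a lineage relation with mucous neck cells, which make Muc6 and Tff2, and a mucous metaplasia with both kinds of transcript is known from injured stomach.

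All 4 mice had the genotype Ptf1aCre-ERTM;ROSAYFP/+ on a background backcrossed to CD-1. Ptf1a is active in adult acinar cells, so tamoxifen by gavage switched on EYFP there before injury. Caerulein, a peptide that overstimulates acinar cells, was then injected for 2 weeks (2 mice) or 4 weeks (2 mice), starting at 10 weeks of age. Sorted EYFP+ cells were sequenced with 10x Genomics 3' chemistry, in which each captured RNA molecule is counted once as a UMI (unique molecular identifier). Both groups were injured, so no level below is set against an uninjured pancreas, and a cell counts as acinar-derived only through the sort and the authors' selection of EYFP+ cells.

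Of 21140 cells, 13362 carried 1 of 8 deposited cell types and 7778 carried none. The 4 libraries held 72459531 to 103610807 UMIs, with medians of 13464 to 20807 UMIs per typed cell. Cell barcodes found in 2 or more mice numbered 67 and belonged to 139 cells. Acinar and MucinDuctal cells were checked against their markers: the 5 acinar markers summed to 49625 to 60516 CPM (the gene's UMIs in the summed cells, scaled to a total of 1e6) in Acinar cells and 1132 to 3945 CPM in MucinDuctal cells. Muc6, Tff2, Krt19, Krt7 and Sox9 summed to 16780 to 60659 CPM in MucinDuctal cells and 1747 to 2652 CPM in Acinar cells. Author cluster 1 was 23.7% to 82.0% of those cells. A Muc6 UMI was found in 70.8% to 95.6% of its cells and a Tff2 UMI in 96.1% to 99.8%. Its 6 Ductal-like markers summed to 10337 to 18711 CPM, above the 5210 to 8598 CPM of its MucinDuctal markers. Ductal-like cells had 16663 to 23862 CPM of the Ductal-like markers. Krt19, Krt7 and Sox9 are on both lists. The library of 2-week mouse 2 stood apart from the other 3 in the genes described here, and the MucinDuctal levels, cluster differences, likeness and time changes are also given without it. Together the 4 genes held 0.955% and 0.254% of the UMIs of typed cells in 2-week mice 1 and 2, and 2.57% and 1.34% in 4-week mice 1 and 2.

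The genes lie on 3 chromosomes of GRCm38, each protein-coding and with 0 overlapping genes in GENCODE M21. Pgc runs from 47726842 to 47734482 on chromosome 17 (+ strand) and Cym from 107211293 to 107221732 on chromosome 3 (- strand). Pga5, from 10668956 to 10678071 (- strand), and Cblif, from 11747554 to 11763447 (+ strand, listed there as Gif), are both on chromosome 19 with 1069482 bases between them. Upstream sequence was found for 3 of the 4 genes (RefSeq, GRCm38.p6), and is shown because Pgc and Cblif were higher in 1 cluster of MucinDuctal cells and Cym in the other. Each line gives the 250 bases before the RefSeq start of the transcript, read on the strand of the gene. The windows are chr17:47726592-47726841 for Pgc, chr19:11747309-11747558 for Cblif and chr3:107221733-107221982 for Cym. For Cblif the RefSeq start lies a few bases downstream of the GENCODE start, so the last bases of its window fall inside the gene as given above. Capitals mark TATAAA (strand of the gene), GATAA (either strand, so TTATC on the opposite one) and CANNTG (the same on both strands).
Pgc: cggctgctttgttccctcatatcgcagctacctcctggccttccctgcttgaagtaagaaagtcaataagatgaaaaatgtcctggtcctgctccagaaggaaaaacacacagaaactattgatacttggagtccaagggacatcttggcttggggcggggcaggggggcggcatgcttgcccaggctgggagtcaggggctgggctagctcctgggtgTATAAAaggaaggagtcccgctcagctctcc
Cblif: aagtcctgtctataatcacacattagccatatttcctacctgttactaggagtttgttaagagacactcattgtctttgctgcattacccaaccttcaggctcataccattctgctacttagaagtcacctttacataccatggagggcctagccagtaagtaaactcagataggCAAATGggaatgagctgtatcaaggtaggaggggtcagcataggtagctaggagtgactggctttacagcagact
Cym: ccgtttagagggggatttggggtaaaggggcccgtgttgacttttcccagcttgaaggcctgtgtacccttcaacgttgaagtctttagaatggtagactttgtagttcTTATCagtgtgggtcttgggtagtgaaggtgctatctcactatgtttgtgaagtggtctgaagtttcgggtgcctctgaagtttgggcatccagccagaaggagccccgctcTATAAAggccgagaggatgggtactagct
TATAAA, the TATA box, began 31 bases before the start of Pgc and 29 before that of Cym, and these letters were not in the Cblif window. Of 32851 RefSeq windows of the same length, 7.59% held it. GATAA, the core read by GATA factors, was found in the Cym window at 141 bases before the start, against 22.6% of all windows. CANNTG, the E-box of basic helix-loop-helix factors, was found in the Cblif window at 75 bases before the start, against 66.2% of all windows. These are matches of letters.

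MucinDuctal cells had the highest level of Pgc in each of the 4 mice. The level there was 58139 and 1252 CPM in 2-week mice 1 and 2, and 66986 and 30113 CPM in 4-week mice 1 and 2 (39122 ± 29740, mean ± SD, n = 4). In 3 libraries Pgc thus made up several percent of all UMIs of these cells, and 2-week mouse 2 lay far below them. The 2 times overlapped. Acinar/MucinDuctal cells, named by the authors for both programs, came next in every mouse, at 31248 and 608 CPM at 2 weeks and 26449 and 16447 CPM at 4 weeks. Ductal-like cells followed in 3 mice with 15672 and 436 CPM at 2 weeks and 3025 and 6427 CPM at 4 weeks, from 22 to 56 cells per mouse. These sums rested on few cells, the richest holding 1062 of 1386 Pgc UMIs in 4-week mouse 1 and 1884 of 3156 in 4-week mouse 2, and the medians over cells were 764, 101.3, 696 and 1106 CPM in the 4 mice. In 4-week mouse 1 the progenitors of the tuft and enteroendocrine lineages, at 4679 CPM from 25 cells, lay above them. Neighbours in this order overlapped between mice.

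Pga5 had its highest level in the same cells, at 5508 and 687 CPM at 2 weeks and 8630 and 5623 CPM at 4 weeks in MucinDuctal cells (5112 ± 3285, n = 4). Its Ductal-like level was 1489 and 491 CPM at 2 weeks and 4274 and 3295 CPM at 4 weeks, above the Acinar/MucinDuctal level in 2-week mouse 2 (348 CPM) and in both 4-week mice (2819 and 2149 CPM). In Ductal-like cells these sums rested on few cells. The richest cell held 985 of 1958 Pga5 UMIs in 4-week mouse 1 and 1135 of 1618 in 4-week mouse 2. By the median cell, Pga5 was lower in Ductal-like cells at 4 weeks, at 69.6 and 293 CPM against 1340 and 968 CPM in Acinar/MucinDuctal cells. Cblif stood at 5297 and 132 CPM at 2 weeks and 4132 and 2347 CPM at 4 weeks in MucinDuctal cells (2977 ± 2251, n = 4). In Acinar/MucinDuctal cells it stood at 3305 and 105 CPM at 2 weeks and 2076 and 1110 CPM at 4 weeks. For both genes 2-week mouse 2 was again the lowest library.

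Cym had the opposite order of mice to Pgc. In MucinDuctal cells it reached 846 and 3114 CPM at 2 weeks and 607 and 1586 CPM at 4 weeks (1538 ± 1130, n = 4), so 2-week mouse 2 was the highest. The same library was highest in Acinar, Acinar.Prolif, Acinar/MucinDuctal, Ductal-like and EEC cells and in the progenitors. Without that library the MucinDuctal means were 51746 CPM for Pgc, 6587 for Pga5, 1013 for Cym and 3925 for Cblif. Over all 4 mice they were 39122, 5112, 1538 and 2977 CPM in that order.

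**Figure D1:**
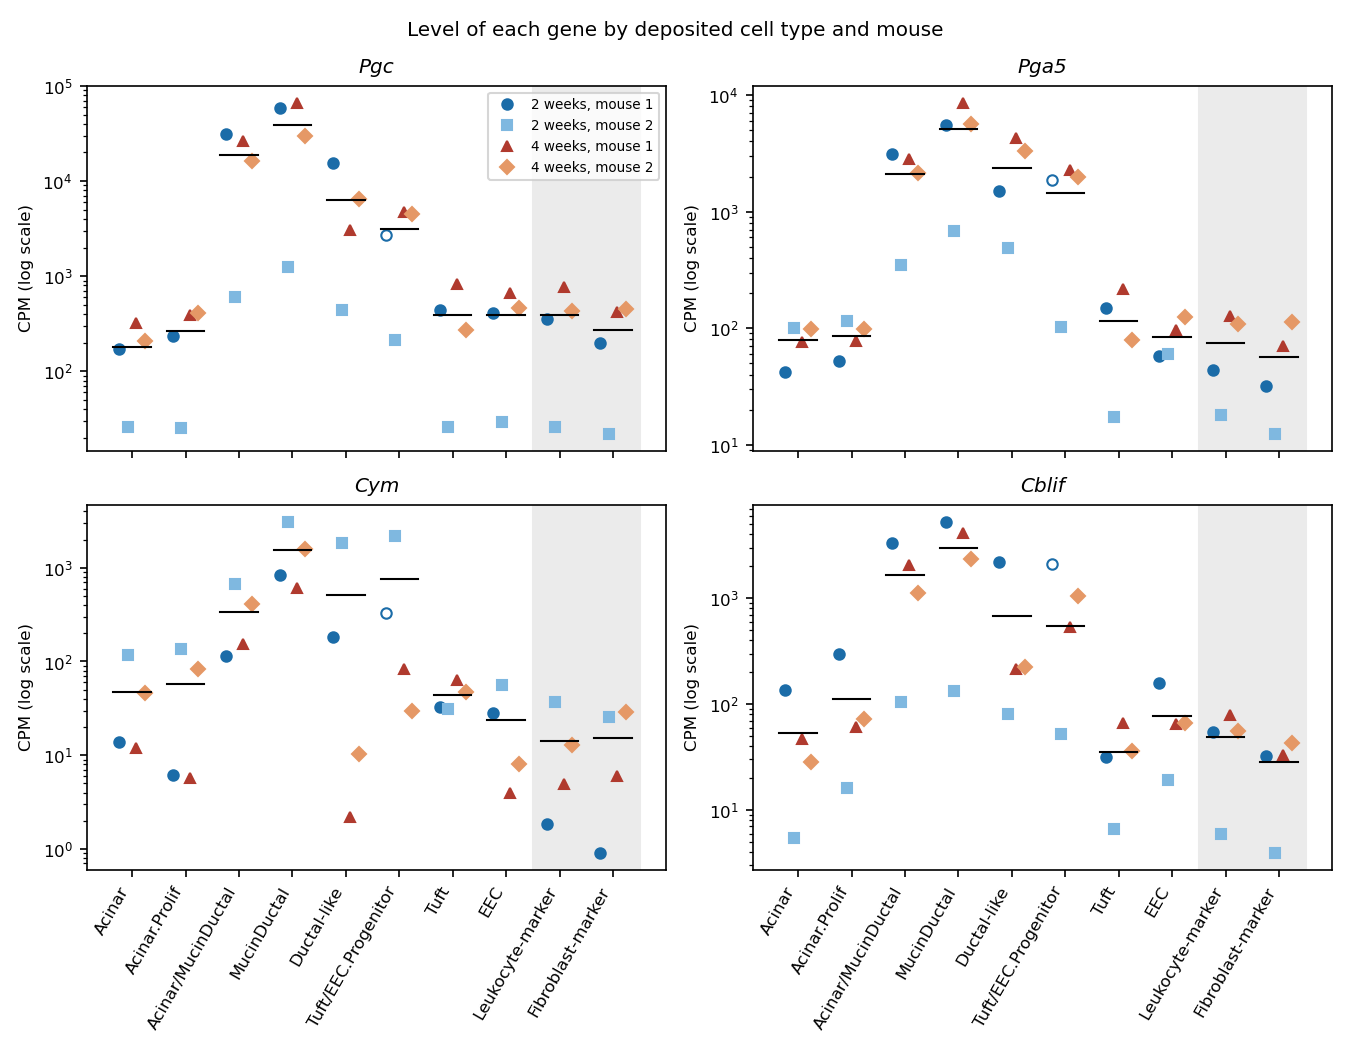
Level of Pgc, Pga5, Cym and Cblif in CPM on a log axis, by deposited cell type (x axis) and mouse (points), with the mean over mice as a black line; open points are from under 20 cells and are left out of the mean, and the grey band holds cells without a deposited type that carry leukocyte or fibroblast markers. Pgc reaches 30113 to 66986 CPM in MucinDuctal cells of 3 mice and 1252 CPM in 2-week mouse 2, which is the highest library for Cym at 3114 CPM.

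Cells without a deposited type gave the background, since leukocytes do not make these proteins. Those with at least 4 of 14 leukocyte genes and no Epcam or EYFP UMI numbered 523 to 713 per mouse. They held Pgc at 358 and 26.2 CPM in the 2-week mice and 763 and 430 CPM in the 4-week mice. A UMI of Pgc was found in 83.5% of them in 2-week mouse 1 (95% exact interval 80.5 to 86.2) and 13.6% in 2-week mouse 2 (10.9 to 16.6). In the 4-week mice the shares were 88.2% (85.6 to 90.5) and 77.4% (73.6 to 81.0), at medians of 4113 to 5470 UMIs per cell over the 4 mice. These intervals cover counting error only. The Pgc background was lowest in the mouse with the lowest MucinDuctal level and highest in the one with the highest. MucinDuctal cells were deeper, at medians of 15110 to 21810 UMIs, and 73.9% to 100% of them had a Pgc UMI. With every cell thinned to 1500 UMIs, which put out 0 to 2 MucinDuctal and 18 to 45 leukocyte-marker cells per mouse, the Pgc shares were 92.1%, 31.6%, 98.4% and 89.4% in MucinDuctal cells. They were 41.9%, 4.59%, 56.3% and 43.0% in leukocyte-marker cells of the same mice, each pair in the order 2-week mouse 1, 2-week mouse 2, 4-week mouse 1 and 4-week mouse 2.

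In MucinDuctal cells every gene stood above that background in all 4 mice, by 47.8 to 162 times for Pgc, 38.0 to 127 times for Pga5, 83.6 to 461 times for Cym and 22.2 to 96.6 times for Cblif in CPM. Acinar/MucinDuctal cells stood 17.7 to 87.2 times above it over the 4 genes. Acinar cells did not for Pgc, with 173, 25.9, 319 and 210 CPM, at or below the leukocyte-marker level in 4 of 4 mice, and a thinned share of 29.7%, 4.401%, 42.3% and 28.5%. That depended on the scale: with 14 zymogen genes left out of the totals, Pgc in Acinar cells was 308, 45.5, 646 and 426 CPM against 369, 26.4, 772 and 442 CPM, above the background in 2-week mouse 2. Per cell they held 2.55 to 4.73 times as many Pgc UMIs as leukocyte-marker cells, at medians of 24008 to 32665 UMIs. Cym in Acinar cells was above background in CPM in 4 of 4 mice, at 13.8, 117, 12.1 and 45.8 CPM against 1.84, 37.3, 4.90 and 12.96 CPM. In 2-week mouse 2 alone Pga5 in Acinar cells exceeded the leukocyte-marker level, at 100.8 CPM beside 18.1 CPM. With zymogens left out, Pga5 exceeded it in 4 of 4 mice, at 74.4, 177, 154 and 198 CPM beside 44.6, 18.2, 128 and 112 CPM. Cblif exceeded it in 2-week mouse 1 alone on the full totals, at 135 CPM beside 54.8 CPM, and with zymogens left out in 3 mice, at 241, 9.52 and 94.2 CPM beside 56.4, 5.99 and 79.9 CPM, with 57.1 CPM in both kinds of cell in 4-week mouse 2. In Acinar.Prolif cells of 2-week mouse 1 Cblif reached 296 CPM on the full totals. In that mouse the ratio of Cblif to Pgc was 0.783 in Acinar and 1.24 in Acinar.Prolif cells, against 0.153 in leukocyte-marker cells. Fibroblast-marker cells, a second background, held Pgc at 196, 21.9, 419 and 455 CPM in the 4 mice. They had 31.7, 12.3, 70.4 and 112 CPM of Pga5 and 32.6, 3.92, 33.4 and 43.0 CPM of Cblif. On the full totals, Pga5 in Acinar cells, at 41.8, 100.8, 76.3 and 97.4 CPM, was above them in all but 4-week mouse 2. So was Cblif, at 135, 5.42, 46.5 and 28.1 CPM. Pgc was above them in 2-week mouse 2 alone.

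MucinDuctal cells were 2 of the authors' clusters, numbered 1 and 2, and the 4 genes were divided between them. Cluster 2 held Pgc at 75882, 5481, 79740 and 49980 CPM (2-week mouse 1, 2-week mouse 2, 4-week mouse 1, 4-week mouse 2), and cluster 1 at 7998, 269, 8239 and 3152 CPM. Cluster 2 was thus the higher by 3.71 ± 0.54 on the log2 scale (mean ± SD over 4 mice). The difference was 2.90 ± 0.62 for Pga5 and 4.06 ± 0.94 for Cblif, each in 4 of 4 mice. Cym ran against these, with 2548, 3705, 2491 and 3390 CPM in cluster 1 and 244, 570, 198 and 256 CPM in cluster 2. Its log2 difference was -3.37 ± 0.47, in 4 of 4 mice. Few cells carried it in some mice: 2% of cluster 1 cells held 64.9% of Cym UMIs in 2-week mouse 1 and 88.9% in 4-week mouse 1. A Cym UMI was found in 25.7%, 68.8%, 21.5% and 47.7% of cluster 1 cells and 32.2%, 55.2%, 18.7% and 23.6% of cluster 2 cells. By that share the order was the other way in 2-week mouse 1. Without 2-week mouse 2 the mean log2 differences were 3.503 for Pgc, 2.65 for Pga5, 3.70 for Cblif and -3.59 for Cym. Other programs differed beside them: the 6 Ductal-like markers summed to 18711, 12321, 15110 and 10337 CPM in cluster 1 and 7616, 6543, 7066 and 5513 CPM in cluster 2. The 8 mucous neck genes summed to 16463 to 31307 CPM in cluster 1 and 121609 to 147419 CPM in cluster 2. The part of these programs in the differences was not tested. Of 8232 genes at 10 CPM or more, 16.6% were higher in cluster 2 in all 4 mice and 43.1% lower. Clusters were drawn on the same counts, so no test was made. Cluster 2 held 66.4% to 86.5% of all Pgc UMIs of a mouse, 54.0% to 84.6% of its Pga5 and 56.6% to 82.2% of its Cblif, while cluster 1 held 62.8% to 79.1% of its Cym.

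The Acinar/MucinDuctal cells were mainly clusters 3 and 4. Cluster 3 kept the acinar enzymes, its 14 zymogen genes summing to 301868 to 325367 CPM, and cluster 4 had 89328 to 135902 CPM of them and more mucous transcripts. Pgc stood at 9047, 405, 8182 and 4364 CPM in cluster 3 and 59269, 799, 43004 and 34569 CPM in cluster 4. Pgc, Pga5 and Cblif thus had the same order in 4 of 4 mice, from lowest in Acinar cluster 0 through clusters 3 and 4 to highest in cluster 2. The clusters were drawn on the same counts and the genes chosen by their levels across types, so this order is a description. The share of all genes with the same order is not given here. Cym had no such order between clusters 3, 4 and 2, where its log2 differences changed sign between mice, although cluster 3 was above cluster 0 by 3.72 ± 0.97 in 4 of 4 mice. Depth differed beside this: cells of clusters 3 and 4 had medians of 2409 to 8353 UMIs in 3 mice and 19556 and 22739 UMIs in 2-week mouse 2, where Pgc in them was lowest. The part of depth in these levels was not tested. Leukocyte markers (14 genes) summed to 57.5 to 342 CPM in cluster 3, 26.4 to 199 CPM in cluster 4 and 10.8 to 29.8 CPM in cluster 2, against 11903 to 13201 CPM in leukocyte-marker cells.

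**Figure D2:**
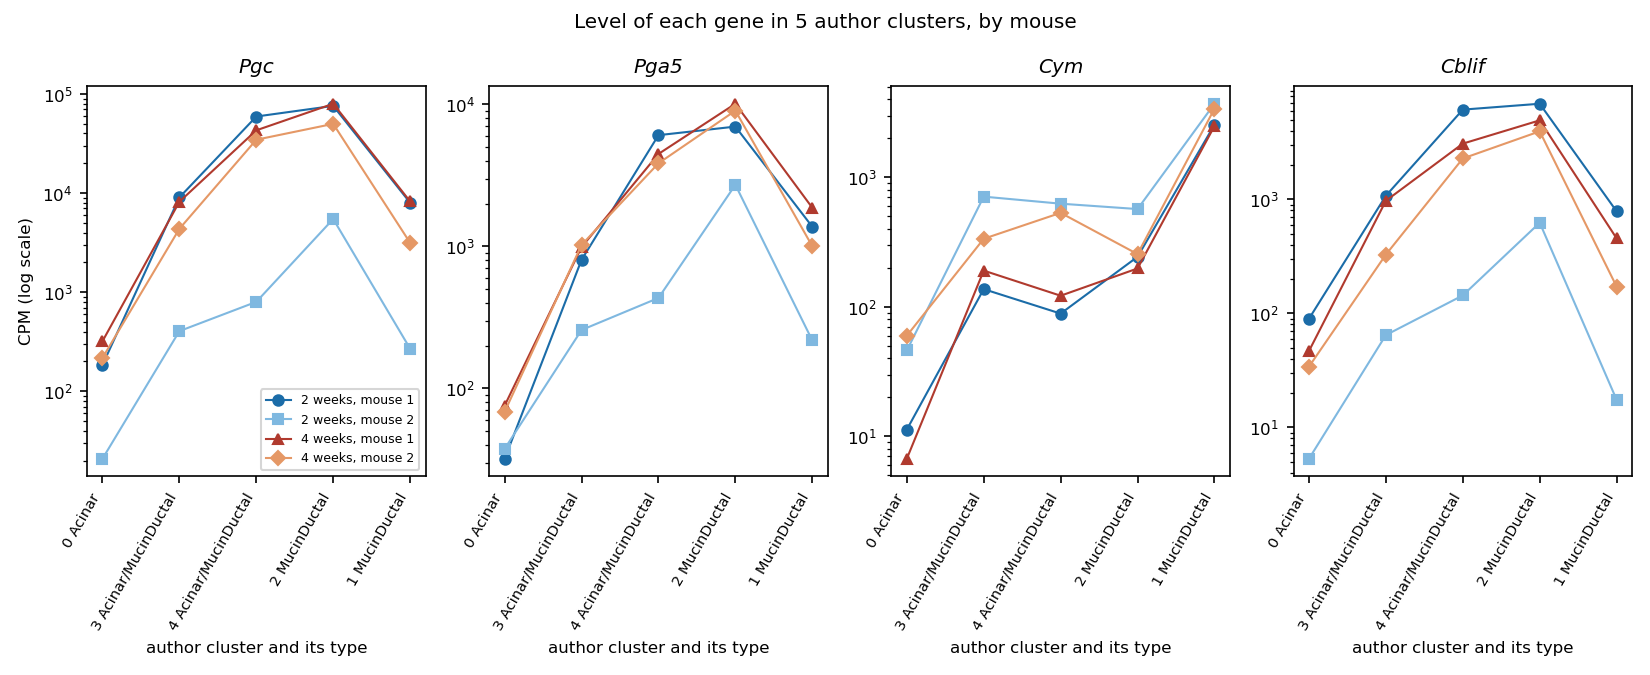
Level of each gene in CPM on a log axis in 5 author clusters (x axis, named with their deposited type), with 1 line per mouse. Pgc, Pga5 and Cblif are higher at each step from cluster 0 to cluster 2 and are lower in cluster 1, where Cym is at its highest, 2491 to 3705 CPM in the 4 mice.

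The makeup of MucinDuctal cells differed between mice in the same sense. In 2-week mouse 2, 1138 of 1388 MucinDuctal cells (82.0%) were cluster 1, against 30.5%, 23.7% and 43.6% in 2-week mouse 1, 4-week mouse 1 and 4-week mouse 2. That mouse was also the lowest within cluster 2, with Pgc at 5481 against 49980 to 79740 CPM, Pga5 at 2711 against 6971 to 10098 CPM and Cblif at 624 against 3950 to 6893 CPM. Mucous genes in its cluster 2 cells were near those of the other mice. Muc6, the gland mucin, stood at 7215 CPM in them, against 6135 to 7643 CPM in the other 3 mice, and Tff2, a trefoil peptide, at 54404 against 49194 to 63894 CPM. Gkn3, a gastrokine of mucous neck cells, was the lowest at 58080 against 70148 to 75250 CPM. Within cluster 1, Cym differed less between mice than it did over all MucinDuctal cells, at 3034 ± 608 CPM (n = 4).

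Cym was held by few cells. In cluster 1 the 10% of cells richest in it held 97.0% and 75.8% of its UMIs at 2 weeks and 99.1% and 87.7% at 4 weeks. A single cell reached 84746 to 169698 CPM of Cym, depending on the mouse, while the median cluster 1 cell had 0 in 3 mice and 120 CPM in 2-week mouse 2. The other members were concentrated in cluster 1 as well, in the richest 10% of cells, with 63.5%, 71.4%, 50.2% and 56.1% of UMIs for Pgc and 64.5%, 88.2%, 70.9% and 77.2% for Pga5 in the 4 mice. Cblif had 77.1%, 95.4%, 68.9% and 79.1%, so in 2-week mouse 2 Pga5 and Cblif were above Cym. Pgc in cluster 2 was spread more evenly, its richest 10% of cells holding 34.8% and 43.1% of UMIs at 2 weeks and 39.0% and 41.5% at 4 weeks. The median cluster 2 cell had 64128, 3144, 59091 and 32592 CPM of Pgc in the 4 mice. Pga5 lay between, with 49.0% to 63.5% of its cluster 2 UMIs in the richest 10%, and Cblif had 35.5% to 60.6%. The mucous gene Gkn3 had 25.1% to 30.2% there and 32.2% to 44.2% in cluster 1. For Cym in cluster 2 the share was 85.1% to 97.3%.

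**Figure D3:**
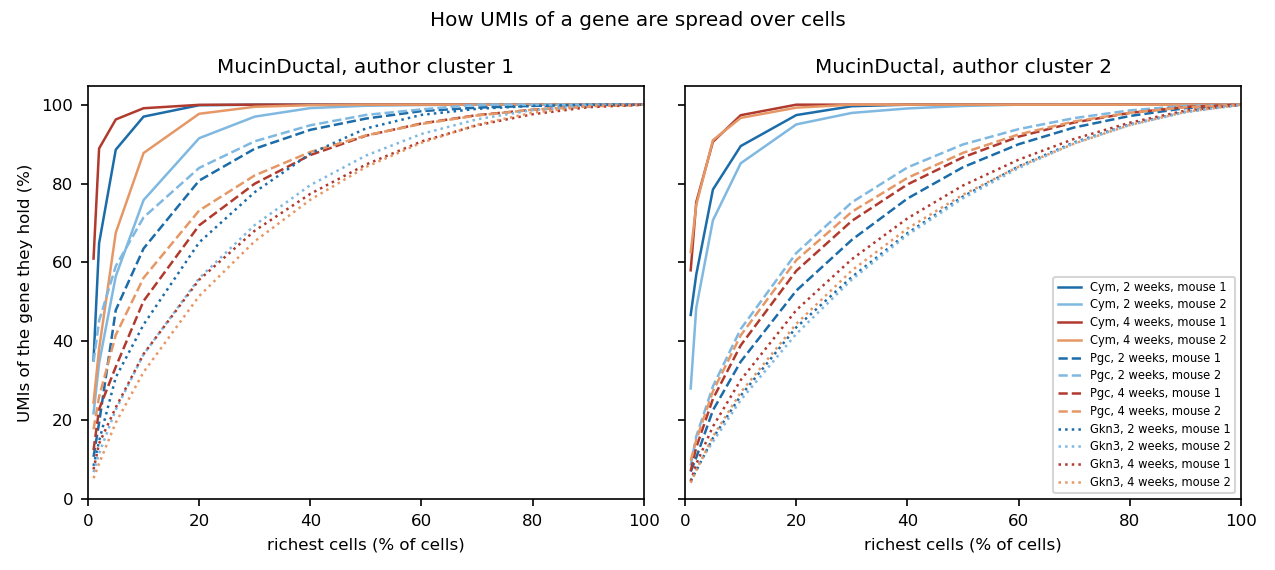
Share of the UMIs of Cym, Pgc and Gkn3 (y axis, %) held by the richest cells (x axis, % of cells, ordered for each gene) in MucinDuctal clusters 1 and 2, with 1 curve per gene and mouse. The richest 10% of cluster 1 cells hold 75.8% to 99.1% of Cym, and the richest 10% of cluster 2 cells hold 34.8% to 43.1% of Pgc.

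Within a cluster, the genes went together to different degrees. Among cluster 1 cells thinned to 1500 UMIs, Cym was found in 20.3% of cells with Pgc and 4.70% of those without in 2-week mouse 1. In the other 3 mice these shares lay within 1.59 percentage points of each other. Cym was found more often with Pga5 than without it in 4 of 4 mice, by 1.82 to 9.32 percentage points in cluster 1 and 2.78 to 7.11 in cluster 2. For Pga5 and Cblif the gap in cluster 1 was in 1 direction in all 4 mice. Cblif was found there in 35.4%, 4.63%, 39.8% and 22.7% of cells with Pga5 and in 20.4%, 1.39%, 27.5% and 8.37% of those without. In cluster 2 the direction differed between mice, the difference for Cblif running from -6.97 to 5.94 percentage points. As rank correlations over cells of 1 cluster and mouse, Pgc and Pga5 had values of 0.19 to 0.67 in clusters 1 to 4, and Pgc and Cym -0.17 to 0.38. Those cells share a library and differ in depth.

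Smaller populations held the genes unevenly. In the progenitors of the tuft and enteroendocrine lineages, Cym stood at 2179 CPM in the 142 cells of 2-week mouse 2, and at 84.0 and 29.8 CPM in the 25 and 28 cells of the 4-week mice. Pga5 had 102 against 2275 and 1974 CPM there. The 10 progenitor cells of 2-week mouse 1 had 332 CPM of Cym and 1871 CPM of Pga5, so for Pga5 only 2-week mouse 2 was low. The sums rested on few cells, the richest 10% holding 83.1% of the Cym UMIs of 2-week mouse 2, where the median cell had 54.4 CPM. In the deposited subtype of Neurog3-marked enteroendocrine progenitors, 45 to 166 cells per mouse, Cblif stood at 1183, 39.3, 249.1 and 385 CPM. A UMI of Cblif was found in 55.6%, 11.4%, 42.4% and 44.2% of them, and the median cell had 71.0 CPM in 2-week mouse 1 and 0 in the other 3 mice, so few cells held these sums. Pgc in the Neurog3-marked cells was 1502, 34.7, 1436 and 1132 CPM. These values were above the 358, 26.2, 763 and 430 CPM of leukocyte-marker cells in 4 of 4 mice. The thinned shares of Pgc, 32.8%, 4.27%, 38.6% and 37.2%, were below those of leukocyte-marker cells in 4 of 4 mice. The EEC and Tuft types held Pgc at 0.634 to 1.23 times the leukocyte-marker level in CPM. In UMIs per cell, Pgc stood at 2.05 to 2.70 times that of leukocyte-marker cells in EEC and 1.89 to 3.90 times in Tuft cells. Cym ran from 0.627 to 15.2 times the leukocyte-marker level in CPM in EEC cells and 0.832 to 17.9 times in Tuft cells.

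Other genes of chief cells were present in part. Lipf, the gastric lipase, was at 0 CPM in MucinDuctal and Acinar/MucinDuctal cells of all 4 mice, and Chia1, an acidic chitinase, stayed under 3 CPM in them. Bhlha15, the secretory-cell factor Mist1, was at 50.5, 34.9, 26.8 and 38.9 CPM in cluster 2 and 12.4, 13.9, 14.05 and 20.9 CPM in cluster 1. Lgr5, a receptor found on chief and stem cells, had 94.0, 30.1, 75.02 and 48.5 CPM in cluster 2 and 38.6, 22.7, 19.0 and 15.6 CPM in cluster 1. Acinar cells carried part of the chief-cell list too, 6 of its 8 genes having counts enough there for the time comparison given below. The levels of these genes in Acinar cells are not given here. Of the 5 listed chief-cell genes at 10 CPM or more, 4 were higher in cluster 2 in 4 of 4 mice and 0 lower, with a median log2 difference of 0.87 against -0.14 over all 8232 genes. The 8 mucous neck genes had 5 higher and 3 lower, with a median of 0.76. The 5 acinar markers summed to 4444, 2290, 4157 and 4609 CPM in cluster 2 and 2535, 863, 1306 and 1386 CPM in cluster 1. Of 13 acinar zymogens at 10 CPM or more, 2 were higher in cluster 2 in 4 of 4 mice and 8 lower. Over all genes the shares were 16.6% higher and 43.1% lower, as above. Ctse, cathepsin E, an aspartic protease of the same family that is made in gastric surface cells, was at 364, 366, 311 and 307 CPM in cluster 1 and 359, 467, 373 and 324 CPM in cluster 2. Cubn and Amn, which form the intrinsic factor receptor, were at most at 0.312 CPM in clusters 1 and 2, whereas Tcn2, the plasma carrier of cobalamin, stood at 149, 95.2, 135 and 114 CPM in cluster 2 and 91.3, 49.7, 82.4 and 53.7 CPM in cluster 1. Of the 5 listed genes of pit cells, which line the gastric surface, Muc5ac, Gkn1 and Gkn2 reached at most 7.72 CPM in clusters 1 to 4. The mucin gene Muc1 stood at 374, 328, 354 and 349 CPM in cluster 2 and 531, 417, 501 and 499 CPM in cluster 1. Tff1, a trefoil peptide, had 23.5, 412, 24.0 and 52.6 CPM in cluster 2 and 200.4, 109, 21.5 and 63.2 CPM in cluster 1. Of the 5 listed parietal genes, Atp4a and Atp4b, the proton pump, reached 73.3 and 56.0 CPM in cluster 3 of 2-week mouse 1 and at most 10.02 CPM elsewhere in clusters 1 to 4. Kcne2 and Slc26a7 were under 1 CPM in clusters 1, 2 and 4, while the potassium channel gene Kcnq1 had 227, 129, 178 and 144 CPM in cluster 2 and 223, 161, 203 and 123 CPM in cluster 1.

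Across 31 sums of a cell type and mouse with at least 20 cells, the genes most like each member were named from 10655 genes by Pearson's r of log2(CPM + 1). These sums share libraries and the types on which the genes were chosen, so r is a description. Pgc was most like Cblif (r = 0.95), Pxylp1 (0.91), Pga5 (0.91), A4gnt (0.87) and Gkn3 (0.84). A4gnt makes the terminal sugar of gland mucins, and Pxylp1 is a phosphatase of proteoglycan synthesis. Pga5 had Pxylp1 (0.93), Gkn3 (0.91), Pgc (0.91), 2700046A07Rik (0.89) and the water channel Aqp5 (0.89). Cblif had Pgc, Pxylp1 (0.89), the secreted glycoprotein Creg1 (0.86), A4gnt (0.85) and Pga5 (0.83). For Cym the nearest were the cytochromes Cyp2b10 (0.86) and Cyp2s1 (0.84), the proton pump subunit Atp6v0a4 (0.85), the trefoil peptide Tff1 (0.84) and mesothelin, Msln (0.84). Its r with Pgc, Pga5 and Cblif was 0.30, 0.38 and 0.30. These low values depended on 2-week mouse 2, the lowest library for the others and the highest for Cym. Without it, over 23 sums, they were 0.72, 0.59 and 0.69. Within single mice, over 7 or 8 types, r of Cym with Pgc was 0.93, 0.90, 0.77 and 0.57, with Pga5 0.93, 0.83, 0.57 and 0.42, and with Cblif 0.77, 0.87, 0.78 and 0.60. Pgc and Cblif had 0.92 without that library, but the order of likeness changed, Muc6 (0.99) and Gkn3 (0.99) then being nearest to Pgc, and Olfm4 (0.86) and Tpd52l1 (0.85) to Cym.

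Time points were compared within the 7 types that had at least 20 cells in every mouse, on counts summed per mouse, with edgeR's quasi-likelihood test. The 4 genes gave 28 such tests, and 0 passed at a Benjamini-Hochberg adjusted p of 0.05 over all genes of the type, with adjusted p from 0.310 to 1.00. Over all genes tested, 0% were called in 6 types and 0.00995% in Acinar.Prolif cells. An unadjusted p under 0.05 was reached by 4 of the 28. Over all genes the share that reached it was 2.79% in Acinar, 2.45% in Acinar.Prolif, 3.42% in Acinar/MucinDuctal, 5.27% in Ductal-like, 4.03% in EEC, 5.39% in MucinDuctal and 6.74% in Tuft cells. DESeq2 called 2 of the 28, both in EEC cells, where it called 0.0753% of genes. In the other types it called 0.132% of genes in Acinar, 0.0118% in Acinar.Prolif, 0.184% in Acinar/MucinDuctal, 0.00602% in Ductal-like, 0.319% in MucinDuctal and 0.217% in Tuft cells. Both 4-week mice lay above both 2-week mice in 8 of the 28, and below them in 2. The share of all genes above was 0.762% in Acinar, 4.39% in Acinar.Prolif, 9.74% in Acinar/MucinDuctal, 16.0% in Ductal-like, 8.85% in EEC, 9.54% in MucinDuctal and 18.2% in Tuft cells. The share below was 61.8%, 27.3%, 22.6%, 18.7%, 23.6%, 30.2% and 17.3% in the same order of types. Pga5 had an estimate above 0 in 7 of 7 types, Pgc in 6, Cblif in 2 and Cym in 1. The types share the same 4 libraries, and the leukocyte-marker levels of Pgc and Pga5 were themselves higher in both 4-week mice than in both 2-week mice. Pgc in Acinar, Acinar.Prolif, EEC and Tuft cells lay near or below that level in CPM. Pga5 in these types stood at 0.602 to 1.72 times it in the 4-week mice and 0.954 to 6.43 times in the 2-week mice. The part of background in the tally was not tested. Members were chosen with both times in view, so no p here is independent support.

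In MucinDuctal cells the log2 change from 2 to 4 weeks was 0.80 (SE 1.63) for Pgc, 1.30 (SE 1.02) for Pga5, -0.72 (SE 0.77) for Cym and 0.35 (SE 1.53) for Cblif. None passed, with edgeR adjusted p of 0.933, 0.848, 0.877 and 0.975. Pga5 alone of the 4 had both 4-week mice above both 2-week mice in CPM. Without 2-week mouse 2 the log2 changes became -0.16 for Pgc, 0.47 for Pga5, 0.46 for Cym and -0.61 for Cblif. Without 2-week mouse 1 they became 5.44, 3.54, -1.35 and 4.78, and Pgc, Pga5 and Cblif then passed (edgeR adjusted p = 0.0468, 0.0378 and 0.0274), with the lone 2-week mouse assumed to vary like the 4-week mice. In Acinar/MucinDuctal cells the log2 changes were 0.51 (SE 1.97), 0.60 (SE 1.17), -0.37 (SE 1.26) and -0.02 (SE 1.88) in the same order of genes, with an adjusted p of 0.999 in each case by edgeR. Leaving out 2-week mouse 1 there moved the log2 change to 5.18 for Pgc, 2.88 for Pga5 and 3.95 for Cblif. With each mouse left out in turn, it ran from -0.46 to 5.18 for Pgc and -0.24 to 2.88 for Pga5. For Cym it ran from -1.37 to 1.45 and for Cblif from -0.97 to 3.95.

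The 4 tests with an unadjusted p under 0.05 were of Pga5 and Cym. In Ductal-like cells the log2 change of Pga5 was 1.98 (SE 0.56; edgeR adjusted p = 0.900), with 2-week values below both 4-week values, the lowest 4-week value being 3295 CPM and the highest 2-week value 1489 CPM. The sums overstate most cells, since the median Ductal-like cell had 74.9 and 75.7 CPM of Pga5 at 2 weeks and 69.6 and 293 CPM at 4 weeks, which overlap. EEC cells had Pga5 at 57.7 and 60.4 CPM at 2 weeks and 96.3 and 124 CPM at 4 weeks (edgeR log2 change 0.98, SE 0.13, adjusted p = 0.317; DESeq2 adjusted p = 0.0343). The Pga5 levels lay beside a leukocyte-marker level of 43.4, 18.1, 127 and 109 CPM. Cym in EEC cells was 27.9 and 55.7 CPM at 2 weeks and 3.95 and 8.12 CPM at 4 weeks (edgeR log2 change -2.71, SE 0.44, adjusted p = 0.802; DESeq2 adjusted p = 4.98e-05), beside 1.84, 37.3, 4.90 and 12.96 CPM in leukocyte-marker cells. The share of EEC cells with a Cym UMI overlapped between times, running from 4.17% to 31.5% over the 4 mice with a 2-week mouse at each end. The part of background in these 2 differences was not tested. Cym in Tuft cells was 32.8 and 31.0 CPM at 2 weeks and 62.9 and 47.0 CPM at 4 weeks (edgeR log2 change 0.78, SE 0.17, adjusted p = 0.310), beside the same leukocyte-marker levels. The share of Tuft cells with a Cym UMI had the other direction, at 12.0% and 32.9% against 4.72% and 13.1%, or 2.50% and 4.55% against 1.75% and 1.86% after thinning. In 4-week mouse 1 the 209 UMIs came from 10 of 212 cells, and 157 of them from 2 cells of the Tuft-1 subtype. The farthest estimate from 0 was that of Cym in Ductal-like cells, from 185 and 1845 CPM to 2.18 and 10.2 CPM (edgeR log2 change -7.32, SE 2.30, adjusted p = 0.901), where each 4-week mouse had 22 or 23 cells. A single cell held 181 of 243 UMIs in 2-week mouse 1 and 2910 of 4423 in 2-week mouse 2. The 4-week values were 1 and 5 UMIs, at 0.445 and 0.786 times the leukocyte-marker level. That estimate passed without either 2-week mouse, at -8.19 without mouse 1 and -4.80 without mouse 2.

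**Figure D4:**
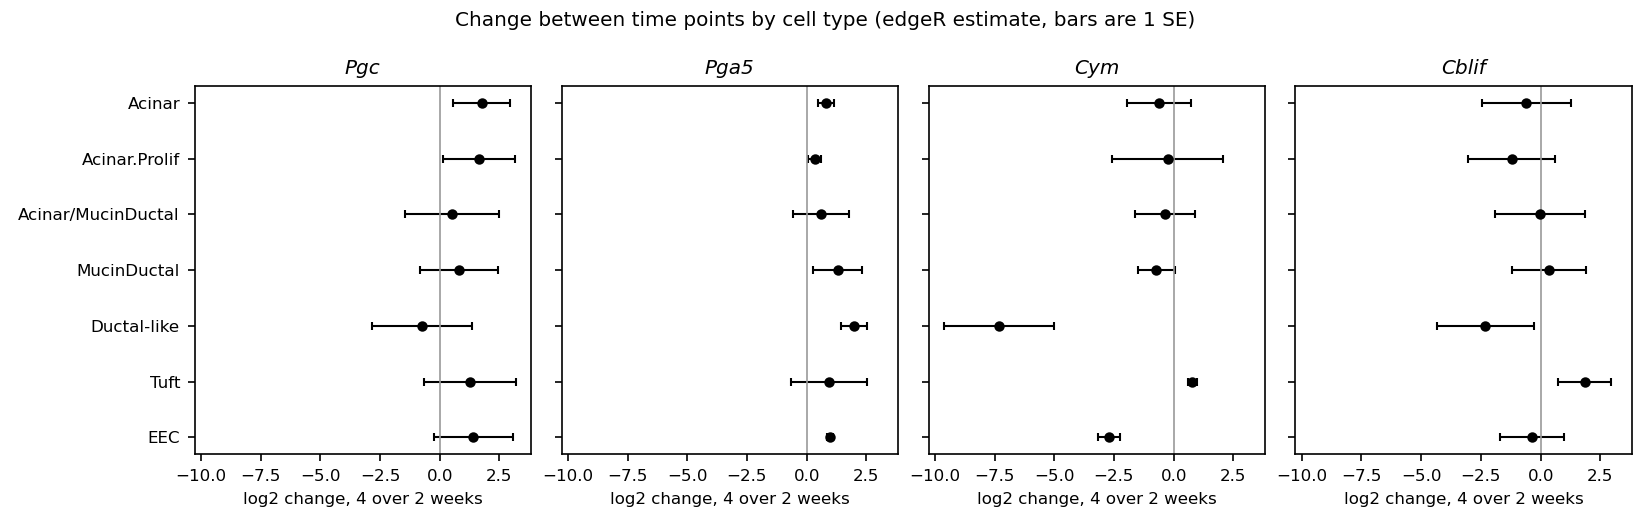
Log2 change from 2 to 4 weeks (x axis, edgeR estimate with 1 SE as bars) of each gene in the 7 cell types with at least 20 cells per mouse (y axis), from 2 mice per time. Estimates in MucinDuctal cells are 0.80, 1.30, -0.72 and 0.35 for Pgc, Pga5, Cym and Cblif, and 0 of the 28 estimates passed an adjusted p of 0.05.

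Genes listed beside these 4 gave 0 calls by edgeR as well. Other chief-cell genes had 0 of 36 tests called over the 7 types, with 1 below 0.05 before adjustment and 0 called by DESeq2. Cobalamin-handling genes had 0 of 67, with 2 before adjustment and 0 with DESeq2, and other aspartic proteases 0 of 30, with 6 and 0. Mucous neck genes had 0 of 54 called, with 13 before adjustment and 4 with DESeq2. Over all genes of a type, 2.45% to 6.74% were below 0.05 before adjustment and 0.00602% to 0.319% were called by DESeq2. In MucinDuctal cells the median log2 change was 0.11 over the 6 tested chief-cell genes and 0.42 over the 8 mucous neck genes, against -0.01 over all genes tested.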

How the data were processed

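The deposited file holds raw UMI counts per gene and cell for 4 mice, made by the authors from 10x Genomics 3' libraries. Cell Ranger 4.0.0, Seurat 3.2.3 and the mm10 build are named without a role per the submitters' processing notes. Cell types, subtypes and clusters were the authors' deposited labels. From these counts, CPM of summed cells, shares of cells with a UMI (exact binomial intervals, 95%) and shares expected at 1500 UMIs were computed. Levels by type are descriptions with no test. Doublets were neither called nor removed here. Background cells were untyped cells with at least 4 of 14 leukocyte genes, or 4 of 8 fibroblast genes, and no Epcam or EYFP UMI.

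Times were compared in each type with at least 20 cells per mouse by edgeR 4.0.16 in R 4.3.3 (quasi-likelihood, robust, TMM, filterByExpr, Benjamini-Hochberg within a type) on counts summed per mouse, n = 2 per time. The procedure was tested on simulated counts with a common dispersion for all genes and no outlying library. That setting does not cover the spread between mice seen here. Standard errors were derived from the log2 change and its F statistic. DESeq2 1.42.0, other scaling, filters, thinning, EYFP minimum and leaving out each mouse were alternatives, and 3 more (author clusters alone, library totals without TMM, and likeness without 2-week mouse 2) were chosen after seeing the data. Named genes were the 4 members, the genes of fixed lists and the 5 genes most like each member. Members and lists were chosen with earlier results of these data known. Labels name each mouse but not whether mice shared litters or days. Python 3.11.15, numpy 2.4.6, scipy 1.17.1, pandas 2.3.3 and matplotlib 3.10.9 were used.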

Additional observations from a re-analysis of the deposited data

Results flagged for a closer look

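Cells that the authors gave no type, and that fell outside the leukocyte-marker and fibroblast-marker groups, were used in no comparison above. Those groups required at least 4 marker genes and no Epcam or EYFP UMI. Cells outside them were thus not selected to lack such genes. These cells held the 4 transcripts above the level of leukocyte-marker cells in all 4 mice. They numbered 4681, with a median of 3045 UMIs. They held 7.01% of all Pgc UMIs, 5.35% of Pga5, 3.30% of Cym and 7.47% of Cblif. Pgc stood in them at 10825 and 391 CPM at 2 weeks and 9228 and 7573 CPM at 4 weeks. At 1000 CPM or more there were 2326 cells for Pgc (49.7%), 1106 for Pga5, 805 for Cblif and 229 for Cym. Summed leukocyte-marker cells stood at 358, 26.2, 763 and 430 CPM of Pgc in the 4 mice, and their share past this cut is not given here. Of the 2326 cells with Pgc, 255 had an EYFP UMI and 1519 an Epcam UMI, at a median of 1952 UMIs per cell. At that depth few UMIs meet the cut of 1000 CPM. Cells past the cut were thus not shown to make these genes.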

How the results depend on the processing

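No paired analysis was possible because the labels give the mice no shared replicate numbers. With 2 mice per time, the time comparison depended on the 2-week mice. Leaving out 2-week mouse 1 brought 17 of the 28 estimates of the 4 genes past the threshold and turned the sign of 7, 5 of them among the 17. Leaving out 2-week mouse 2 brought 10 past it and turned 9 others, and leaving out 4-week mouse 1 or 2 gave 0 calls and turned 4 and 1. The lone mouse is then assumed to vary like the other group, and the cause was not tested.

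Leaving out each mouse in turn, the log2 change of Pgc ran from -0.16 to 5.44 in MucinDuctal, -0.46 to 5.18 in Acinar/MucinDuctal and -1.70 to 3.3998 in Ductal-like cells. That of Pga5 ran from 0.47 to 3.54 in MucinDuctal, -0.24 to 2.88 in Acinar/MucinDuctal, -0.014 to 0.77 in Acinar.Prolif and -0.039 to 3.08 in Tuft cells. That of Cym ran from -1.55 to 0.46 in MucinDuctal, -1.37 to 1.45 in Acinar/MucinDuctal, -1.79 to 1.35 in Acinar and -3.13 to 2.83 in Acinar.Prolif cells. That of Cblif ran from -0.61 to 4.78 in MucinDuctal, -0.97 to 3.95 in Acinar/MucinDuctal, -1.53 to 3.46 in Acinar, -2.14 to 2.44 in Acinar.Prolif, -3.26 to 1.42 in Ductal-like and -1.24 to 1.92 in EEC cells. Other reversals were Cym in cluster 4 alone (0.056), and Cblif in cluster 3 alone (0.21), in Acinar/MucinDuctal cells with at least 2 EYFP UMIs (0.11) and in cluster 1 alone (-0.33).

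Genes called numbered 0 in each type by edgeR except 1 in Acinar.Prolif cells. In the order Acinar, Acinar.Prolif, Acinar/MucinDuctal, Ductal-like, EEC, MucinDuctal and Tuft, DESeq2 called 17, 2, 21, 1, 14, 45 and 30, and edgeR without a filter on low counts called 286, 51, 128, 81, 74, 6 and 266. Leaving out a mouse gave 13 to 129, 5 to 143, 0 to 122, 0 to 230, 0 to 366, 0 to 191 and 5 to 273. Library totals without TMM gave 9 in Acinar, 2 in Acinar.Prolif, 2 in Acinar/MucinDuctal and 7 in EEC cells, and moved the median log2 change of all genes from -0.03 to -0.49 in Acinar, 0.01 to -0.18 in Acinar.Prolif and -0.01 to -0.13 in MucinDuctal cells. The fit that was not robust gave 0 in Acinar.Prolif cells. At least 2 EYFP UMIs gave 2 in Acinar.Prolif and 2 in Ductal-like cells. Cluster 3 alone gave 1 and cluster 1 alone gave 2.

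Without thinning, the mean share of MucinDuctal cells with a UMI was 79.1% for Pga5 and 37.5% for Cym, and the cluster 2 difference in Cblif between cells with and without Pga5 was 0.31 percentage points, against -0.31 thinned. Of 96 levels recomputed with all mice, 92 moved by less than 1 SD. With zymogens left out of the totals, mean Pgc in Acinar cells moved from 182 to 356 CPM, Pga5 from 79.1 to 151 CPM there and from 86.0 to 133 CPM in Acinar.Prolif cells. The mean over cells of each cell's CPM gave 308 CPM for Pgc in Acinar cells. Without 2-week mouse 2, chosen after the data had been seen, r of Cym with Pgc (0.72) and Cblif (0.69) moved.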

Other observations

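Mrpl16, a mitochondrial ribosomal protein gene that lies 6943 bases downstream of Cblif on the same strand, ranked 6 among the genes most like Cblif (r = 0.83 over 31 sums). It stood at 31.3, 13.2, 13.6 and 14.9 CPM in Acinar cluster 0 and 190, 82.9, 167 and 177 CPM in MucinDuctal cluster 2, in the order 2-week mouse 1, 2-week mouse 2, 4-week mouse 1 and 4-week mouse 2. Leukocyte-marker cells had 23.4 to 24.9 CPM. Mrpl16 was looked at for its position, after its values were seen. Tfeb, the next gene downstream of Pgc on the same strand at 2547 bases, stood at 0.835 to 2.28 CPM in cluster 0. It had 4.95 to 7.02 CPM in cluster 2, 6.82 to 8.87 CPM in cluster 1 and 27.3 to 33.7 CPM in leukocyte-marker cells.

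Tff1, a trefoil peptide, was highest in cluster 2 of 2-week mouse 2, at 412 CPM against 23.5 to 52.6 CPM in the other 3 mice. Onecut2, a homeobox factor, was lower in cluster 2 than in cluster 1 in 4 of 4 mice, at 185, 330, 190 and 170 CPM against 324, 773, 518 and 498 CPM. The same held for 43.1% of the 8232 genes at 10 CPM or more. Of 9 listed gastric and acinar transcription factors at that level, 3 were higher in cluster 2 in 4 of 4 mice and 3 lower.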
